A study of Mus musculus with 37 samples.

Results

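T-cell receptor beta clonotypes that use the joining segment TRBJ2-5 were examined in lymph nodes of 37 mice. The members were chosen by the J gene the depositors assigned to each sequence, TRBJ2-5, an entry being 1 CDR3 nucleotide sequence with its V and J gene in 1 library. There were 245850 such entries among 1704980 in all 37 libraries, or 14.4%. The other TRBJ2 segments held 1089017 entries, 374787 of them with TRBJ2-7. Every entry was listed as productive, and no combination of sequence, V and J gene occurred again within a library.

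Each library came from genomic DNA of digested lymph node from 1 mouse, amplified across the rearranged beta locus and sequenced. The tumour-bearing mice were MMTV-PyMT females, in which the mammary tumour virus promoter drives the polyoma middle T oncogene in mammary epithelium. On the day labelled d105 there were 6 mice labelled PLX+PTX+aPD-1_R, 4 labelled PLX+PTX+aPD-1_NR, 6 given PLX+PTX and 2 given PTX. The d105 set also held 5 mice labelled WTNT, of FVBN genotype. The earlier day, d95, had no WTNT mice but 5 labelled R, 3 labelled NR, 3 on PLX+PTX and 3 on PTX alone. PLX is PLX3397, also named pexidartinib, which inhibits CSF1R, a receptor that macrophages depend on, and was given in chow at 40 mg/kg per day from 80 days of age. PTX was injected at 10 mg/kg from 85 days of age, every 5 days. The antibody aPD-1 (clone RMP1-14) blocks the inhibitory T-cell receptor PD-1; it was started at 87 days with 1.0 mg and continued at 0.5 mg every 5 days, with an isotype antibody as its control. The labels do not spell out R, NR or WTNT. Littermates were randomized by tumour volume, and the labels name no sorting of T cells.

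In the mouse beta locus on chromosome 6, a D segment is first joined to a J segment and a V segment is then joined to the DJ unit. Bases are trimmed from the segment ends and others are added, so most of the diversity lies in the CDR3 loop at the junction. The reference annotation orders the 3′ part of the locus as Trbd1, Trbj1-1 to Trbj1-7, Trbd2, then Trbj2-1, Trbj2-2, Trbj2-3, Trbj2-4, Trbj2-5, the pseudogene Trbj2-6 and Trbj2-7. TRBJ2-5 can join TRBD1 or TRBD2, since both lie upstream of it. The CDR3 runs from a conserved cysteine encoded by V to a conserved phenylalanine encoded by J, so TRBJ2-5 supplies the end of the loop. A clonotype found in several mice is called public; such sequences are usually short and need few added bases.

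The sequences that carry the results are given here from the deposited files, 5′ to 3′. The first is the stretch of TRBJ2-5 inside the CDR3 when nothing was trimmed, as held by 13441 (91.9%) of the 14626 clonotypes whose J end was neither trimmed nor extended by palindromic bases. It encodes NQDTQYF. The others are the leading nucleotide form of a public TRBV2 and a public TRBV1 clonotype, of 3 clonotypes read in more d105 than d95 libraries (TRBV3, TRBV4 and TRBV5), and of a TRBV13-2 clonotype that recurred between mice. Capitals mark the bases that match the germline TRBJ2-5 end.
TRBJ2-5 germline end: AACCAAGACACCCAGTACTTT
TRBV2 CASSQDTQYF: tgtgccagcagCCAAGACACCCAGTACTTT
TRBV1 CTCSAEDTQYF: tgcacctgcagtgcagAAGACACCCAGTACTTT
TRBV3 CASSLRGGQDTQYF: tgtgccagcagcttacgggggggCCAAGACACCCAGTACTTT
TRBV4 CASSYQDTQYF: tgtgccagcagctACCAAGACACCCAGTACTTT
TRBV5, 15 residues: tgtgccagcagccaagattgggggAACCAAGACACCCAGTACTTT
TRBV13-2 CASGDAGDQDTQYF: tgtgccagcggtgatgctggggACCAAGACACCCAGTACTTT

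In the TRBV2 sequence all but the first 2 J bases remain. This form was read in 34 libraries and held 96.6% of the reads of that TRBV2 clonotype, which had 5 nucleotide forms. The TRBV3 sequence is of the opposite kind: its leading form was in 17 libraries and held 18.8% of the reads, the rest being spread over 38 further forms that encode the same amino acids. The TRBV13-2 form held 99.7% of the reads of its clonotype and was read in 27 libraries.

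The libraries of the 2 days differed in depth before any other difference. Reads per library were 1090573 to 2831566 at d105 and 90648 to 917752 at d95, with no overlap, so the day and the yield of sequencing cannot be told apart. The range of mouse numbers in the labels also separated the MMTV-PyMT mice of the 2 days, so it cannot be told apart from the day either. At d105 all NR and PTX mice fell in 1 of 2 ranges, while R and PLX+PTX mice fell in both. TRBJ2-5 entries per library numbered 310 to 4138 at d95, the 310 being those of NR replicate 1, which had 2470 entries in all. Abundance was measured in 3 ways. The first is the deposited normalized clone count, which rescales the reads of each V and J pair, the second is the plain read count (cloneCount), and the third counts each clonotype once. All are shares of a library, so fewer cells with TRBJ2-5 and more cells with other segments cannot be told apart. Reads from PCR without molecular identifiers are not independent molecules, so intervals given for single libraries cover counting error only.

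TRBJ2-5 ranked 2 among the J segments of all 37 libraries by normalized counts. By reads its rank was 2 in 25 libraries, 3 in 10 and 4 in 2, and by clonotypes counted once it was 2 in 34 and 3 in 3. Its normalized share in the 6 d105 R mice was 20.5, 22.5, 20.9, 20.9, 20.8 and 19.1%. In the 4 d105 NR mice it was 21.8, 16.7, 19.4 and 18.1%. The R and NR mice overlapped, because NR replicate 1 lay above all but 1 of the R mice.

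The 6 d105 PLX+PTX mice had normalized shares between 19.3 and 21.1%. The 2 d105 PTX mice had 20.7 and 19.1%. In the 5 WTNT mice the normalized share ran from 18.6 to 21.7%, and 4 of the 18 d105 MMTV-PyMT mice lay outside that range.

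At d95 the normalized share was 10.1, 11.1, 11.4, 11.1 and 11.5% in the R mice. It was 11.6, 11.1 and 10.4% in the NR mice. In the PLX+PTX mice it was 11.1, 13.9 and 11.7%, and in the PTX mice 10.99, 11.8 and 12.9%. All d95 libraries lay below all d105 libraries, the highest d95 value being 13.9% and the lowest d105 value 16.7%.

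**Figure D1:**
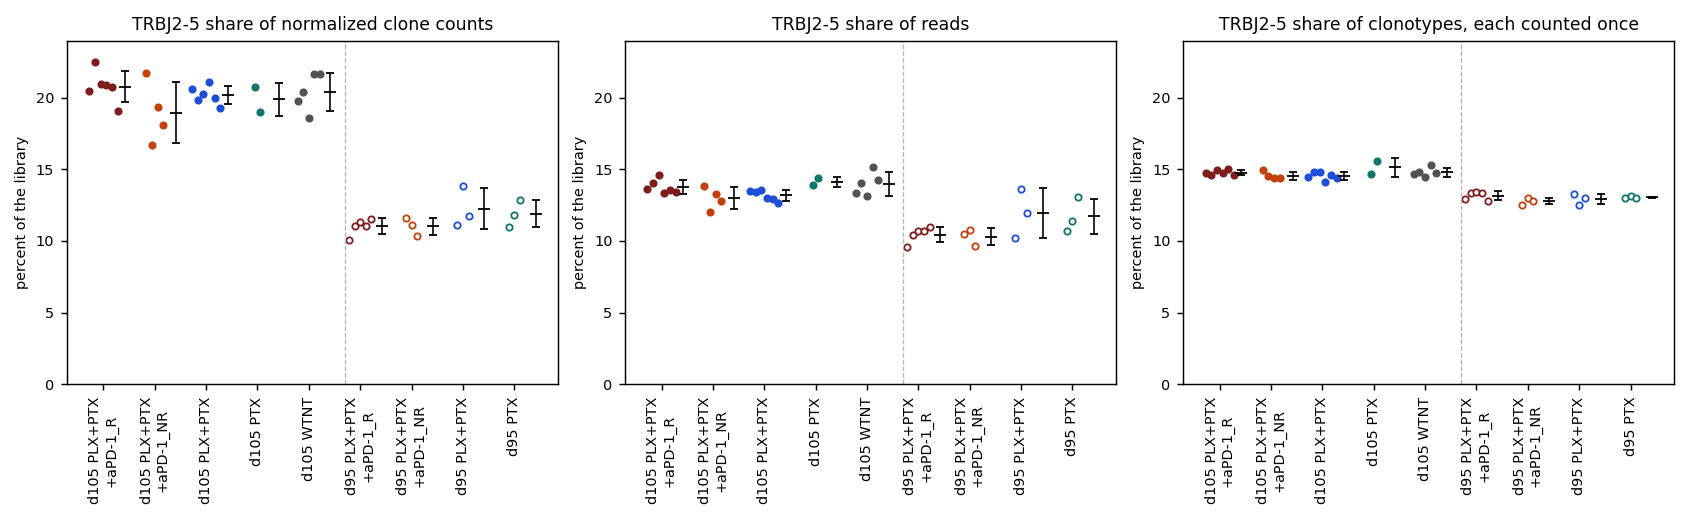
Share of TRBJ2-5 in each library (y axis, percent of the library) by group (x axis), as normalized clone counts, as reads and with each clonotype counted once. Points are mice and bars are the group mean ± SD; filled points are d105 and open points d95, and the d105 normalized shares (16.7% and up) all lie above the d95 ones (13.9% and below).

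The day difference was the largest difference in TRBJ2-5 use among the comparisons made. The 18 d105 MMTV-PyMT mice averaged 20.1 ± 1.36% of normalized counts and the 14 d95 mice 11.5 ± 0.956% (SD). The mean of the per-treatment differences was 0.79 ± 0.039 on the log2 scale (SE; limma, adjusted p = 1.93e-16). In this comparison 20 of 24 segments tested passed an adjusted p of 0.05 (83.3%), 10 of them higher at d105 (41.7%), so passing it does not set TRBJ2-5 apart.

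The size of the difference depended on the measure. By reads, TRBJ2-5 held 13.5 ± 0.624% in d105 MMTV-PyMT mice and 11.01 ± 1.19% in d95 mice, and the 2 sets overlapped. The log2 difference was 0.29 (limma, adjusted p = 1.36e-07). Counted once, clonotypes with TRBJ2-5 made up 14.7 ± 0.331% in d105 MMTV-PyMT mice and 13.01 ± 0.283% in d95 mice. The log2 difference was 0.19 (limma, adjusted p = 4.61e-13). With every library thinned to 90648 reads, a choice made after seeing the data, the difference in clonotypes counted once was 0.15 (adjusted p = 1.21e-08). The direction was therefore the same in each measure, and the difference in normalized counts was the larger.

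Its neighbours in the cluster did not move as one. In normalized counts TRBJ2-7 held 29.4% at d105 and 40.7% at d95 (log2 -0.45), and TRBJ2-2 held 5.64% and 7.30% on those days (log2 -0.37). TRBJ2-4 held 10.6% at d105 and 6.56% at d95 (log2 0.69), TRBJ2-3 held 9.16% and 5.80% (log2 0.62), and TRBJ2-1 held 10.1% and 8.73% (log2 0.20). The d105 percentages here cover all 23 d105 libraries, WTNT mice included, while the log2 differences are between MMTV-PyMT mice. All 5 passed the test. By reads TRBJ2-3 and TRBJ2-2 did not, with log2 differences of 0.05 (adjusted p = 0.259) and 0.00 (adjusted p = 0.958), and TRBJ2-1 turned to -0.09 (adjusted p = 0.0470).

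The 3 segments whose normalized share ran most like that of TRBJ2-5 across the 37 libraries were TRBJ2-3, TRBJ2-4 and TRBV26. Within the 23 d105 libraries their Pearson r with TRBJ2-5 was 0.854, 0.759 and 0.712. Within the 14 d95 libraries it was 0.855, -0.134 and -0.579. Only the likeness with TRBJ2-3 kept its sign and size within both days; the points share each library's total, and the values are a description.

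The treatment comparisons within a day gave no called difference for TRBJ2-5. At d105 the log2 difference of R over NR was 0.14 ± 0.061 (SE; limma, adjusted p = 0.178), with group means of 20.8 ± 1.10% and 19.0 ± 2.14%. None of the 24 segments tested was called (0%), though 6 had an unadjusted p under 0.05, TRBJ2-5 among them. This value rested on single NR mice: without NR replicate 1 it was 0.20 (adjusted p = 0.0341, with 29.2% of segments called), and without NR replicate 2 it was 0.08 (adjusted p = 0.556). With the range of mouse numbers in the labels as a term, it was 0.13 (adjusted p = 0.377).

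Adding aPD-1 to PLX+PTX at d105 changed the normalized share by -0.03 ± 0.049 (SE; limma, adjusted p = 0.934), and adding PLX3397 to PTX by 0.02 ± 0.077 (adjusted p = 0.917). The d105 MMTV-PyMT groups differed from WTNT by -0.03 ± 0.049 (adjusted p = 0.899), with WTNT mice at 20.4 ± 1.32%. At d95 the difference of R over NR was 0.00100 ± 0.084 (adjusted p = 0.991). At d95 aPD-1 over PLX+PTX was -0.15 ± 0.079 (adjusted p = 0.217) and PLX3397 over PTX 0.04 ± 0.094 (adjusted p = 0.975). Of 24 segments, 0 were called in each of these (0%), and between 0 and 5 had an unadjusted p under 0.05.

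None of these differences was shown to change with the day. The change between d105 and d95 was 0.14 for R over NR (limma, adjusted p = 0.982), 0.12 for aPD-1 over PLX+PTX (adjusted p = 0.316) and -0.02 for PLX3397 over PTX (adjusted p = 0.994). In the aPD-1 change 1 other segment of 24 was called (4.17%). The groups of 2 and 3 mice limit these comparisons, and a p above the threshold does not show that the groups were alike.

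The V partners of TRBJ2-5 carried the day difference unevenly. TRBJ2-5 was paired with 21 TRBV segments, of which 12 passed the filter of a mean share of 0.05% of normalized counts in the day fit. By entries the commonest partners were TRBV24 with 46142, TRBV1 with 36501, TRBV2 with 35200, TRBV3 with 28328, TRBV4 with 22786, TRBV19 with 21628 and TRBV5 with 20548. TRBV29 had 16097, TRBV26 had 9379, and TRBV20, TRBV23 and TRBV30 had 1803 to 3675. The other 9 are taken up below with the V genes that FVB mice lack.

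TRBV5 paired with TRBJ2-5 took 5.71 ± 0.958% of a library's normalized counts in d105 MMTV-PyMT mice and 0.902 ± 0.261% in d95 mice (SD, n = 18 and 14). Its lowest d105 value was 3.75% and its highest d95 value 1.25%. The log2 difference was 2.73 ± 0.13 (SE; limma, adjusted p = 9.07e-17). The pair was thus several times more abundant at d105 in every library.

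The pairs with TRBV3, TRBV26 and TRBV4 also separated the days with no overlap. TRBV3 held 2.28 to 3.76% at d105 and 0.460 to 1.29% at d95, a log2 difference of 1.84 ± 0.11. TRBV26 held 1.49 to 3.10% and 0.474 to 0.863% (log2 1.69 ± 0.093), and TRBV4 2.28 to 3.48% and 0.979 to 1.36% (log2 1.44 ± 0.060). The pair with TRBV20 was also higher at d105 (log2 1.68 ± 0.27), as were TRBV29 (0.40) and TRBV19 (0.20, adjusted p = 0.0381).

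Lower at d105 were 3 pairs. TRBV1 held 0.860 to 1.15% of a library at d105 and 1.06 to 3.43% at d95 (log2 -0.73), and TRBV24 held 1.49 to 2.18% and 1.86 to 4.79% (log2 -0.68). The other was TRBV2 (log2 -0.28). The pairs with TRBV23 (log2 0.22, limma, adjusted p = 0.0974) and TRBV30 (0.19, adjusted p = 0.154) did not pass. In all, 10 of 12 TRBJ2-5 pairs were called, against 93 of 111 V and J pairs tested (83.8%), 41 higher at d105 (36.9%) and 52 lower (46.8%). The median log2 difference was 0.31 over the 12 pairs and -0.11 over all pairs.

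**Figure D2:**
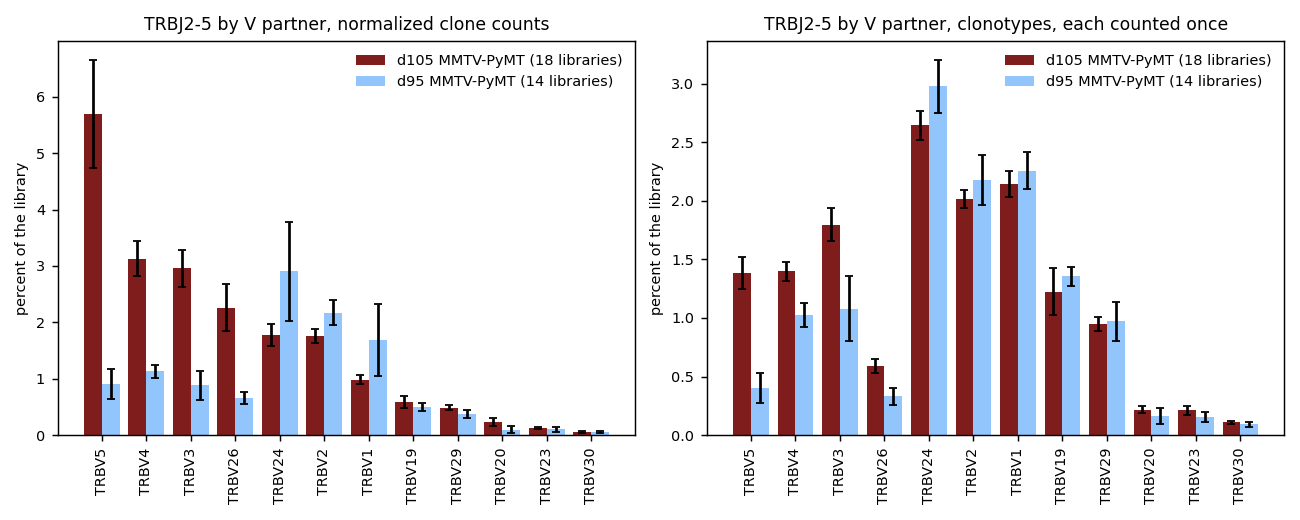
Percent of the library held by TRBJ2-5 with each of 12 V partners (x axis), as normalized clone counts and with each clonotype counted once (y axes). Bars are means and lines the SD over 18 d105 and 14 d95 MMTV-PyMT mice; TRBV5 stands at 5.71% and 0.902% of normalized counts.

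The make-up of TRBJ2-5 itself followed. TRBV5 held 28.2 ± 3.16% of TRBJ2-5 normalized counts at d105 and 8.01 ± 2.66% at d95, TRBV4 held 15.6 and 9.95%, TRBV3 14.7 and 7.91%, and TRBV26 11.2 and 5.83%. TRBV24, in contrast, held 8.89 ± 1.26% at d105 and 24.95 ± 5.50% at d95, TRBV2 8.81 and 19.0%, and TRBV1 4.93 and 14.4%. The leading partner was therefore TRBV5 at d105 and TRBV24 at d95. At d105 the normalized TRBV5 part was 29.4% in R, 26.1% in NR, 28.9% in PLX+PTX, 27.2% in PTX and 27.8% in WTNT mice. At d95 it was 9.99% in R, 6.95% in NR, 7.26% in PLX+PTX and 6.54% in PTX mice.

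The normalized values carry the factor by which the deposited normalization multiplies each pair. For TRBJ2-5 the normalized count per read was 63.1 with TRBV5, 19.9 with TRBV26, 15.2 with TRBV4 and 13.2 with TRBV3. It was 2.89 with TRBV20, 1.53 with TRBV2, 1.19 with TRBV24, 1.16 with TRBV19 and 0.805 with TRBV1. For the partners with deeply read clonotypes the factor differed between libraries by at most 0.561%. That check did not cover TRBV5 or TRBV4, and it rested on 2 libraries each for TRBV3 and TRBV26. The 4 V partners with the largest factors, chosen after seeing the factors, held 69.7 ± 3.91% of TRBJ2-5 normalized counts at d105 and 31.7 ± 6.74% at d95.

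In plain reads those 4 partners were minor on both days, holding 10.4% of TRBJ2-5 reads at d105 and 2.70% at d95. Counted once they held 35.1% of clonotypes at d105 and 21.8% at d95, and after thinning to equal reads 21.3 and 12.4%. They accounted for a gain of 10.3 percentage points of the library at d105 in normalized counts, the other partners together for -1.90, and the sum was 8.42. TRBV5 alone gave 4.73 points, TRBV3 2.12, TRBV4 1.96 and TRBV26 1.51, against -1.19 for TRBV24 and -0.747 for TRBV1. By reads the split was different: the 4 partners gave 1.10 points and the other partners 1.33, of 2.43 in all. The largest gain by reads was that of TRBV29, at 0.753 points, and TRBV5 gave 0.176. Counted once the 4 partners gave 2.35 points and the other partners -0.568. The part of the factors in the size of the day difference was not tested beyond these values.

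Without the factors, the pairs kept most of their directions. By reads 12 of 13 TRBJ2-5 pairs tested were called, against 93 of 113 overall (82.3%), and TRBV5 (log2 2.74), TRBV3 (2.27), TRBV26 (2.05), TRBV20 (2.03) and TRBV4 (1.91) remained the largest rises beside TRBV13-2 (2.71). TRBV2 turned to 0.27 by reads, TRBV24 was at -0.12 without passing, and TRBV1 was at -0.18. With clonotypes counted once in thinned libraries, 6 of 12 pairs were called, against 44 of 120 overall (36.7%): TRBV5 (1.93), TRBV20 (1.01), TRBV3 (0.95), TRBV26 (0.89) and TRBV4 (0.68) were higher at d105 and TRBV24 (-0.12) was lower.

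The same V segments behaved alike with some other J partners. With all of TRBV3, TRBV4, TRBV5 and TRBV26, the pairs with TRBJ2-1, TRBJ2-3 and TRBJ2-4 were also higher at d105 and those with TRBJ2-7 and TRBJ2-2 lower, all called. The pair of TRBV26 with TRBJ2-3 differed by 4.09 on the log2 scale, and that of TRBV5 with TRBJ2-4 by 3.34, both more than any TRBJ2-5 pair, while TRBV5 with TRBJ2-7 was at -0.69. Within TRBV5, TRBJ2-5 held 34.9 ± 4.19% of normalized counts at d105 and 6.78 ± 1.82% at d95, and 12.5 ± 1.10% and 3.998 ± 1.34% of clonotypes counted once.

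No TRBJ2-5 pair was called in a treatment comparison within a day (limma, 0 of 12 in each). Of these 12, 2 had an unadjusted p under 0.05 in d105 R over NR, 2 in d105 PLX3397 over PTX and 3 in d95 aPD-1 over PLX+PTX. Over all pairs 0% were called, except 1 of 111 (0.901%) in d105 PLX3397 over PTX. Without d95 PLX+PTX replicate 1, 3 pairs were called in d95 aPD-1 over PLX+PTX: TRBV1 at -0.99, TRBV20 at 2.13 and TRBV3 at 0.94. Over all pairs 40 of 112 (35.7%) were called in that setting, so the 3 of 12 are not particular to TRBJ2-5.

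As background, the FVB genome carries a deletion that removes several V genes of the beta locus. TRBJ2-5 entries with 9 V segments on a list of those genes held 54622 reads in 309 clonotype entries, or 0.880% of TRBJ2-5 reads. TRBV13-2 held 52363 of these reads (95.9%), and TRBV12-1, TRBV13-1, TRBV13-3 and TRBV14 held 437 to 563 each. Almost all TRBV13-2 reads belonged to a single clonotype, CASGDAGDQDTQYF, whose sequence is printed above. It had 51721 reads, 98.8% of those of TRBV13-2 with TRBJ2-5.

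This clonotype was read in 27 of 37 libraries, 22 of 23 at d105 and 5 of 14 at d95. In the d105 R mice it held 0.00859, 0.0175, 0.499, 0.0264, 0.0123 and 0.146% of reads. In the d105 NR mice it held 0.222, 0.112, 0.0472 and 0.109%. In the PLX+PTX mice it held 0.00932, 0.0632, 0.0513, 0.0288, 0 and 0.00716%, the 0 allowing a share of up to 0.000173% at 3 reads. The R mice thus spanned 0.00859 to 0.499%, and the 3 groups overlapped.

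The 2 PTX mice held 0.165 and 0.549% (95% Wilson interval of the second 0.535 to 0.563%). The WTNT mice, labelled FVBN, held 0.0152, 0.229, 0.0808, 0.649 and 0.0506%. In WTNT replicate 4 the clonotype made up 4.27% of all TRBJ2-5 reads (interval of its 0.649% of the library 0.637 to 0.663%). At d95 it held 0.0574% in NR replicate 1, on 52 reads (interval 0.0438 to 0.0752%), 0.00970% in PTX replicate 1, 0.00648% in NR replicate 2, and 0.00336 and 0.000421% in 2 R mice. It was not read in the other 9 d95 libraries, all 3 PLX+PTX mice among them, where 3 reads would be 0.000327 to 0.00135%. Group means at d105 were 0.118 ± 0.194% in R, 0.123 ± 0.0727% in NR, 0.0266 ± 0.0258% in PLX+PTX, 0.357 ± 0.271% in PTX and 0.205 ± 0.261% in WTNT mice, with SDs above the mean in R and WTNT mice.

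**Figure D3:**
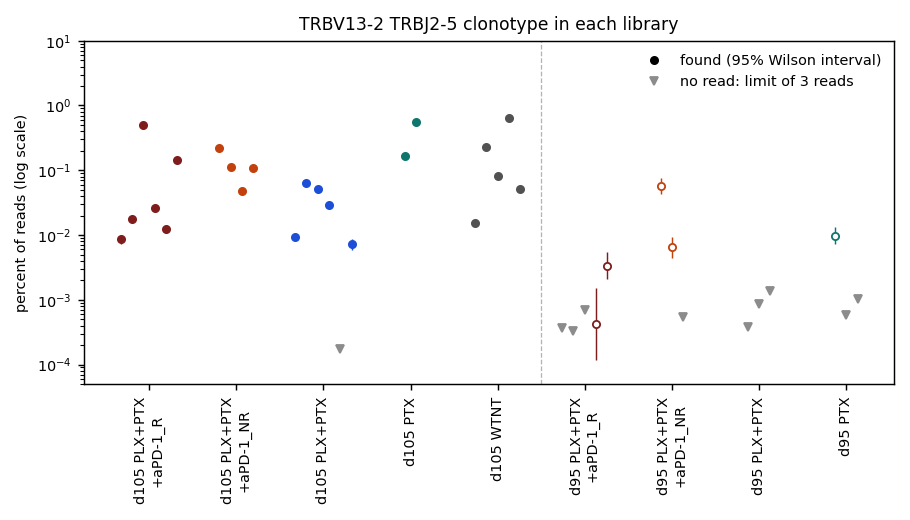
Share of reads held by the TRBV13-2 clonotype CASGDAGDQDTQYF (y axis, percent, log scale) in each library, by group (x axis). Points carry 95% Wilson intervals, grey triangles are the limit of 3 reads where none was read, and the highest library is WTNT replicate 4 at 0.649%.

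Both its size and its spread across mice were unusual among TRBJ2-5 sequences. It was the first TRBJ2-5 clonotype by reads in 12 libraries and passed 1000 reads in 11. Apart from TRBV13-2, 8 TRBJ2-5 nucleotide sequences passed 1000 reads in some library, and these were found in a median of 2 libraries (1 to 21). Of 206734 TRBJ2-5 nucleotide sequences, 6 were in 27 or more libraries. The other 5 used TRBV1 or TRBV2 and reached at most 769 reads in a library, against 12224 for the TRBV13-2 sequence. Whether the reads of this sequence arose separately in each mouse or passed between libraries was not tested. Without this clonotype the day difference in the TRBJ2-5 share of reads was 0.28 (limma, adjusted p = 2.4e-07).

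Public TRBJ2-5 clonotypes were a small part of the whole. Joined by V gene and amino acid sequence, there were 142083 clonotypes, of which 113718 (80.0%) were in 1 library and 373 (0.263%) in 19 or more. The other TRBJ2 segments had 79.7% in 1 library and 0.288% in 19 or more. The 373 public clonotypes had a mean CDR3 of 13.4 residues and a median of 13 nucleotide forms, against 14.3 residues and 1 form for those in 1 library. Of the 373, 89 used TRBV24, 86 TRBV1, 71 TRBV2, 41 TRBV3, 28 TRBV19, 22 TRBV4 and 19 TRBV5.

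They held 7.37 ± 0.886% of TRBJ2-5 normalized counts in d105 MMTV-PyMT mice and 10.2 ± 1.22% in d95 mice. As parts of the library these were 1.48 and 1.17%. The 12 found in most libraries were in 32 to 36 libraries and used TRBV1 (7), TRBV2 (4) and TRBV3 (1). TRBV1 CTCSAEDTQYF led with 36 libraries, at 63.0 normalized counts per 1000000 (CPM) in all 23 d105 libraries and 122 CPM at d95. TRBV2 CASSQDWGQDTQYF and TRBV1 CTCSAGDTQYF, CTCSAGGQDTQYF, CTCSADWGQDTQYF and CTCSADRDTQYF followed with 35 each. TRBV3 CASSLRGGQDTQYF, in 32 libraries, was the one of the 12 with the most nucleotide forms (39). The next in number of forms were TRBV1 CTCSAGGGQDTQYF with 38 and TRBV24 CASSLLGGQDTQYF with 34.

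Shared clonotypes were tested where they occurred in at least 50% of the libraries compared. Between d105 and d95, 43 of 347 TRBJ2-5 clonotypes were called, 42 of them higher at d105, against 125 of 2394 over all J segments (5.22%), 115 higher (4.8%) and 10 lower (0.418%). The filter lets a clonotype absent at d95 pass but not one absent at d105, and d95 libraries were shallower, so neither count is support for a direction. Among V genes with large factors, 16 of 38 tested were called with TRBV3, 11 of 13 with TRBV5, 7 of 22 with TRBV4 and 1 of 3 with TRBV26. With TRBV2 it was 3 of 67, with TRBV1 2 of 81, and with TRBV19, TRBV20 and TRBV13-2 1 each. Tested by reads, 32 of the 43 were also called. The part of the factors in these calls was not tested. When a clonotype had to be in 50% of each day's libraries, a rule added after seeing the data, 3 of 113 TRBJ2-5 clonotypes were called and 11 of 882 overall (1.25%). With presence in at least 80% of libraries, 1 of 22 was called, against 7 of 209 overall (3.35%). After thinning, 11 of 347 were called, 10 of them among the 43, and 30 of 2394 overall (1.25%).

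Levels are therefore given for these clonotypes as a description, without a test. TRBV4 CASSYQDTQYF was in 16 of 18 d105 MMTV-PyMT and 1 of 14 d95 libraries, at 147 ± 128 and 4.81 CPM. The TRBV5 clonotype of 15 residues printed above was in 17 and 2 libraries. TRBV3 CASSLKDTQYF was in 16 and 3, at 66.9 and 10.9 CPM. These 3 were thus read in few of the shallower d95 libraries.

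The TRBV13-2 clonotype was in 17 of 18 and 5 of 14 of those libraries, at 379 and 27.1 normalized CPM. The 3 clonotypes called under the 50% rule within each day were TRBV3 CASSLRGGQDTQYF (log2 2.07, limma, adjusted p = 0.0255), TRBV4 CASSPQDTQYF (2.27, adjusted p = 0.0255) and TRBV5 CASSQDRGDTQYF (2.55, adjusted p = 0.0412). The first of these was in 18 and 9 libraries, at 130 and 40.2 CPM. TRBV1 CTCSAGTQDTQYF, the one lower clonotype of the 43, was in 8 of 18 and 9 of 14 libraries, at 7.38 and 43.7 CPM (log2 -1.11 ± 0.33, limma, adjusted p = 0.0422). That call came under the filter of 50% of all libraries compared, which gives no support for a direction. It was lost in limma by reads (adjusted p = 0.1296), after thinning (0.163) and with a pseudocount of 1 CPM (0.155).

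Within a day no shared TRBJ2-5 clonotype was called between treatments, of 795 tested at d105 and 122 at d95 (limma). At an unadjusted p under 0.05 there were 37 in d105 R over NR, 38 in aPD-1 over PLX+PTX, 90 in PLX3397 over PTX and 50 in MMTV-PyMT over WTNT. At d95 there were 12, 11 and 9. Over all clonotypes 0% were called in each, except 0.207% in d95 R over NR and 0.104% in d95 PLX3397 over PTX.

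The most abundant TRBJ2-5 clonotype depended on the measure in some groups and not in others. Each value given is a share of a single library of the group and not a group mean. By reads the TRBV13-2 clonotype led in d105 R, NR, PTX and WTNT mice. A TRBV19 clonotype of 15 residues led in d105 PLX+PTX mice with 0.0850% of reads in replicate 1. At d95 the leaders by reads were TRBV1 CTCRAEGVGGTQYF in R replicate 2 (0.0702%, Wilson interval 0.0650 to 0.0758%), TRBV24 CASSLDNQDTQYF in NR replicate 1 (0.172%, 0.147 to 0.201%), TRBV1 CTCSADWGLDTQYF in PLX+PTX replicate 2 (0.0995%) and a TRBV24 clonotype of 16 residues in PTX replicate 1 (0.0714%). None of the leaders by reads at d95 exceeded the TRBV13-2 clonotype of d105 PTX replicate 2.

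By normalized counts some leaders rested on few reads. TRBV26 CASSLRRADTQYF led the d95 NR mice with 0.159% of the normalized counts of replicate 1, on 10 reads. That library had the fewest reads of all, and the sequence was found in no other library. TRBV5 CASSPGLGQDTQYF led the d95 R mice with 0.0720% on 9 reads in replicate 4. TRBV5 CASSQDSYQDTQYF led the d95 PLX+PTX mice with 0.0843% on 17 reads in replicate 1. At d105 a TRBV5 clonotype of 15 residues led the PLX+PTX mice with 0.133% on 62 reads in replicate 6. In d105 NR mice TRBV5 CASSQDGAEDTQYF led with 0.256% on 178 reads in replicate 1.

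The J end of the junction had its own pattern. TRBJ2-5 brings 21 germline bases to the CDR3, of which a mean of 3.57 were trimmed, and 16.6% of its clonotypes were untrimmed (40812, of which 26186 carried palindromic bases). TRBJ2-7 brings 19 bases, with a mean of 4.03 trimmed and 19.0% untrimmed. TRBJ2-5 was most often trimmed by 2 bases (16.7%), 3 (15.1%) or 6 (14.3%). TRBJ2-7 was most often trimmed by 4 (21.1%), 3 (14.4%), 6 (14.2%) or 10 (12.7%). A loss of 6 was thus as common in both, whereas a loss of 10 was seen in 0.316% of TRBJ2-5 clonotypes.

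**Figure D4:**
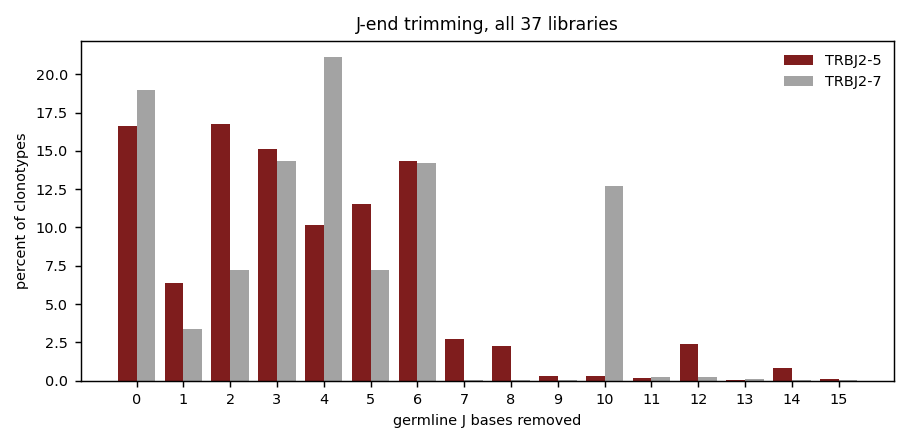
Percent of clonotypes (y axis) by the number of germline J bases removed (x axis, 0 to 15), for TRBJ2-5 and TRBJ2-7 over all libraries. Above 0 bases, TRBJ2-5 peaks at 2 and 6 and TRBJ2-7 at 4, 6 and 10.

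Read as amino acids, 36.5% of TRBJ2-5 clonotypes ended in QDTQYF, 27.6% in DTQYF preceded by another residue than Q or E, 15.8% in the full NQDTQYF, 6.62% in TQYF and 6.20% in EDTQYF, each counted under its longest ending. In d105 mice 15.5% kept NQDTQYF, against 16.8% in d95 mice. TRBD2 was assigned to 44.2% of TRBJ2-5 clonotypes, TRBD1 to 35.5% and no D to 20.3%. Inserted bases were counted as all bases between V and J not given to a D segment. Where no D was assigned they can include D remnants. They averaged 3.66 in d105 and 3.49 in d95 MMTV-PyMT mice, and clonotypes with no inserted base made up 10.4 and 11.9%. These day values, and those for NQDTQYF, were taken without thinning, so the difference in depth was not allowed for.

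Set against the other TRBJ2 segments within the same library, TRBJ2-5 clonotypes were trimmed more than the pool of those segments. They lost 3.54 bases, against 3.32 (difference 0.220, higher in 36 of 37 libraries). Their mean CDR3 was shorter, 14.0 against 14.1 residues (difference -0.0880, lower in 36 of 37). Both had an adjusted p of 2e-05 in a 2-sided permutation test by sign flips, the smallest it can give. The pool is not uniform. Over all entries TRBJ2-1 and TRBJ2-7 lost 4.03 bases each, more than the 3.57 of TRBJ2-5, and the mean CDR3 of TRBJ2-7 was 13.5 residues. Germline length in the CDR3 differs too, being 23 bases for TRBJ2-2.

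The bases kept gave 17.5 and 17.4 over all libraries (difference 0.0209, permutation test, adjusted p = 0.264), but the days differed in sign: -0.0377 at d105 (adjusted p = 0.00482) and 0.117 at d95 (adjusted p = 0.00484). Weighted by normalized counts the difference in bases kept was 0.728. Of a library's entries, on average 53.7% with TRBJ2-5 and 54.2% with the other TRBJ2 segments belonged to clonotypes found in several mice. Here a clonotype counts in every library that holds it, unlike in the 80.0% found in 1 library. The sharing difference was -0.537 points (lower in 29 of 37, permutation test, adjusted p = 0.00361). At d95 alone that last difference was -0.287 (adjusted p = 0.717). Weighted by normalized counts the length, trimming and sharing differences turned sign, to 0.218 residues, -0.0522 bases and 0.951 points.

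CDR3 length of TRBJ2-5 clonotypes had its mode at 14 residues (34.9%), with 22.5% at 15 and 21.9% at 13. It ran from a mean of 13.02 with TRBV30 to 14.4 with TRBV5 and TRBV2. In d105 MMTV-PyMT mice the mean was 14.0 ± 0.034 residues, against 13.9 ± 0.044 in d95 mice, a difference of 0.0969 (permutation test, adjusted p = 8e-05). After thinning to equal reads the difference was -0.00305 (adjusted p = 1), and weighted by reads it was -0.0404 (adjusted p = 0.629).

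**Figure D5:**
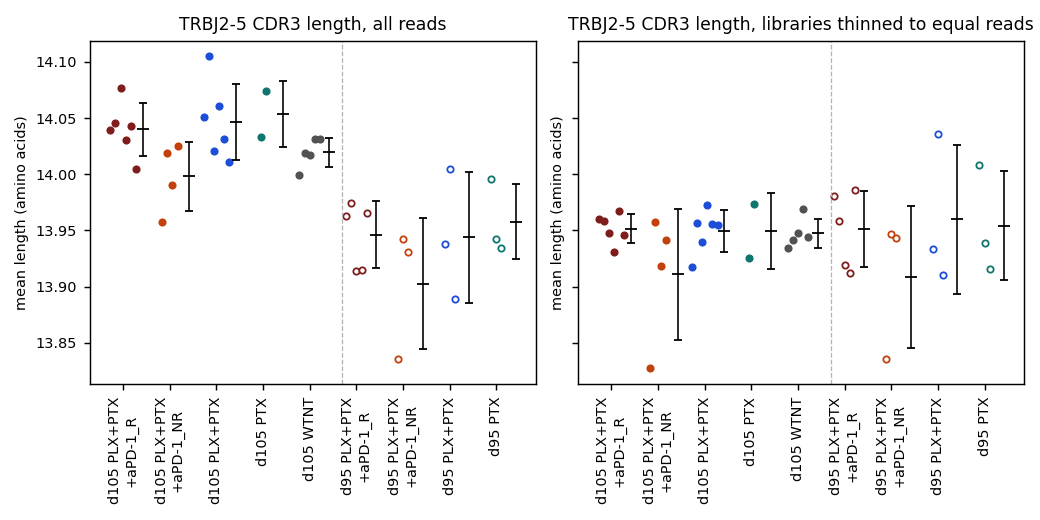
Mean CDR3 length of TRBJ2-5 clonotypes (y axis, amino acids) in each library by group (x axis), from all reads and after thinning to equal reads, with the group mean ± SD. The d105 means lie above the d95 means with all reads (difference 0.0969) and not after thinning (-0.00305).

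No length difference between treatments within a day passed an adjusted p of 0.05 in exact permutation tests. The PLX3397 over PTX tests had 28 regroupings of mice at d105 and 20 at d95, and d95 R over NR had 56. With so few, the threshold could hardly be reached, so these tests cannot decide. R over NR was 0.0419 residues at d105 (exact permutation test, unadjusted p = 0.0333, adjusted p = 0.133) and 0.0436 at d95 (adjusted p = 0.407). At d105 it was -0.0233 for aPD-1 over PLX+PTX (adjusted p = 0.407), -0.00724 for PLX3397 over PTX (adjusted p = 0.9) and 0.0149 for MMTV-PyMT over WTNT (adjusted p = 0.557). At d95 it was -0.0138 for aPD-1 over PLX+PTX and -0.0140 for PLX3397 over PTX (adjusted p = 0.9 for both). Without d105 R replicate 6 the d105 R over NR difference was 0.0490 (exact permutation test, adjusted p = 0.0317). Leaving out any other mouse gave no adjusted p under 0.05. Without NR replicate 1 the difference was 0.0284 (same test, adjusted p = 0.407), and after thinning with all mice 0.0404 (adjusted p = 0.457).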

How the data were processed

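Per the file headers, the authors deposited 1 table per library with the V, D and J gene, CDR3 sequences, a read count (cloneCount) and 2 rescaled counts, the normalized clone count and the nb clone count. The deposited rescaled counts are treated here as scores on the authors' own scale. No source used here names the aligner, the clonotype caller or the build. RefSeq's annotation was used for gene names and order only. The members and lists were chosen with earlier results of these data known, the d105 R and NR shares and 2 named clonotypes among them.

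Shares of a library's normalized counts were tested as log2(percent + 0.01) with limma 3.58.1 in R 4.3.3. The tests ran over all TRBV and TRBJ segments averaging 0.1% or more, over V and J pairs of at least 0.05%, and over V and amino acid clonotypes found in at least 50% of libraries (log2 of CPM + 10). The 23 d105, 14 d95 or 32 MMTV-PyMT libraries shared a fit with 1 mean per group, and p-values were adjusted by Benjamini-Hochberg over all features at 0.05. The day difference is the mean over 4 treatments. Values per library were compared by 2-sided permutation tests, exact where possible and otherwise with 100000 resamples. CDR3 length was compared between groups, day labels being permuted within treatment, and adjusted over 8 comparisons. Length, bases kept, trimming and sharing were set against the other TRBJ2 segments by sign flips and adjusted over these 4 measures. Alternatives used reads, clonotypes counted once, nb clone counts, other pseudocounts and filters, edgeR 4.0.16 and DESeq2 1.42.0 on the read counts, and each replicate left out. Thinning to 90648 reads was added after seeing the data. Python 3.11.15, pandas 2.3.3, numpy 2.4.6 and scipy 1.17.1 did the rest. Each library is 1 mouse, so p-values measure the spread between these mice. Replicate numbers follow the order of the samples.

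On data simulated for d105 R over NR, 4 of 4 changed segments among 24, 19 of 20 changed pairs among 111 and 168 of 200 changed clonotypes among 5242 were recovered, with 0, 0 and 9 false calls. On simulated reads edgeR and DESeq2 each recovered 4 of 4 segments among 25, with 1 and 2 false calls. Whether differences of the size observed between R and NR mice would be recovered was not tested. Named were the segment with the 3 most like it, the 6 leading V partners with every called pair, pairs of TRBV13-2 and of the V genes deleted in FVB mice, the 12 most widely found clonotypes, called ones up to 10 per direction, the leader of each group, and those with most nucleotide forms.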

Additional observations from a re-analysis of the deposited data

Results flagged for a closer look

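In 3 cases a value lay far from the other mice of their group. Of 40 groups of values tested in this way, chance would mark about 1 in 20. The share of TRBJ2-5 entries whose clonotype was found in several mice was 51.0% in d105 NR replicate 2. It was 52.0 to 52.2% in the other d105 NR mice. The TRBV13-2 clonotype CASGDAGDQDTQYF held 0.499% of reads in d105 R replicate 3, against 0.00859 to 0.146% in the other R mice. At d95 the same clonotype held 0.00336% of reads in R replicate 5, against 0 to 0.000421% in the other R mice. The causes were not tested.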

How the results depend on the processing

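No paired analysis was possible because the replicate numbers follow the order of the samples and pair no mice. The day difference in TRBJ2-5 share was called under every alternative run, at 0.15 (counted once after thinning) to 0.80 (thinned normalized counts), and 0.77 to 0.81 with 1 mouse left out.

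Small differences changed sign with the measure. For aPD-1 over PLX+PTX at d105 the share difference was 0.0206 by reads, 0.0130 counted once, 0.0208 counted once after thinning, 0.0205 by edgeR, 0.0390 by DESeq2 and 0.0120 by reads without the TRBV13-2 clonotype. For PLX3397 over PTX at d105 it was -0.10 by reads, -0.0592 counted once, -0.0314 by nb clone counts, -0.0547 counted once after thinning, -0.12 by edgeR, -0.11 by DESeq2 and -0.0724 by reads without that clonotype. At d95, R over NR was -0.0295 by nb clone counts and -0.00875 counted once after thinning, and PLX3397 over PTX was -0.0119 counted once, -0.0208 counted once after thinning and -0.0150 in thinned normalized counts. For aPD-1 over PLX+PTX at d95 it was 0.00462 counted once, 0.00776 counted once after thinning, and -0.35 by DESeq2 (adjusted p = 0.0421), which called 6 of 24 segments (25%) where edgeR called 0. The change of R over NR between days was -0.0204 counted once.

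Counted once after thinning, 6 V pairs were called between days and 2 of 12 for PLX3397 over PTX at d105 (TRBV2 at 0.16 and TRBV23 at 0.46), near the 14.3% of all pairs. Called day clonotypes numbered 1 of 22 with presence in 80% of libraries (3.35% overall), 11 of 347 after thinning (1.25%) and 3 of 113 with presence in 50% of each day's libraries (1.25%). CDR3 length differences turned to 0.000263 (d105 PLX3397 over PTX, thinned), -0.00585 (MMTV-PyMT over WTNT, thinned), -0.00933 (d95 R over NR, by reads), 0.00924, 0.0190 and 0.00546 (d95 PLX3397 over PTX, by normalized counts, by reads and thinned), and for the day 0.0179 (normalized counts, adjusted p = 0.821), -0.0404 (reads) and -0.00305 (thinned). Against the other TRBJ2 segments, weighting by normalized counts gave 0.218 residues, 0.728 bases kept, -0.0522 bases trimmed and 0.951 points shared; bases kept differed by -0.0377 at d105 (permutation test, adjusted p = 0.00482) and 0.117 at d95 (adjusted p = 0.00484), and sharing by -0.287 points at d95 (adjusted p = 0.717). The causes were not tested.

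With 1 mouse left out, share differences ran from 0.0771 to 0.20 (d105 R over NR), -0.0608 to 0.00249 (d105 aPD-1), -0.0389 to 0.0829 (d105 PLX3397), -0.0670 to -0.0114 (MMTV-PyMT over WTNT), -0.0430 to 0.0378 (d95 R over NR), -0.21 to -0.0552 (d95 aPD-1) and -0.0530 to 0.10 (d95 PLX3397). Called pairs ran from 0 to 3 for d95 aPD-1 and 9 to 11 for the day, and called day clonotypes from 28 (without d105 PTX replicate 1) to 46. Length differences ran from 0.0284 to 0.0510 (d105 R over NR), -0.0304 to -0.0116 (d105 aPD-1), -0.0278 to 0.0133 (d105 PLX3397), 0.00982 to 0.0194 (MMTV-PyMT over WTNT), 0.01001 to 0.0634 (d95 R over NR), -0.0412 to 0.0166 (d95 aPD-1), -0.0443 to 0.0134 (d95 PLX3397) and 0.0885 to 0.105 (day).

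Depth limits the d95 libraries most, where 3 reads are up to 0.00135% of a library that lacked the TRBV13-2 clonotype.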
